A study of Mus musculus with 8 samples.

Results

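The genes described are 31 mouse genes of the integrated stress response and of serine and one-carbon metabolism, taken by symbol from the 27710 genes that every count file lists. All 31 had at least 1 count in some library, and 30 had counts in every library. RNA was measured in 8 libraries of cultured lineage-depleted bone marrow, that is, marrow from which cells carrying mature blood markers were removed. The groups were 3 Alkbh5-deficient libraries fed the nucleoside 4-thiouridine (s4U), 3 wild-type (WT) libraries fed s4U, 1 unlabelled Alkbh5-deficient library and 1 unlabelled WT library. The deficient cells are labelled Vav-iCre+; Alkbh5fl/fl, so a recombinase driven by the blood-cell Vav promoter deletes the floxed gene. The WT cells are labelled only WT, and no Cre or floxed allele is given for them. Fed cells received 100 µM s4U for 2 h. All cultures, per the labels' protocols, held 10% serum with mSCF, mTPO and mFlt3L at 50 ng/mL each and mIL3 at 10 ng/mL. No age is given. The labels do not state a separate animal for each replicate, and the p-values describe the spread between these libraries only. ALKBH5 is an RNA demethylase that acts on N6-methyladenosine, and the title of the series concerns RNA stability of metabolic transcripts. The deposited gene counts give RNA levels, and RNA half-lives were not analysed here.

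In the integrated stress response, kinases that sense amino acid shortage, unfolded proteins, heme shortage or double-stranded RNA phosphorylate the translation factor eIF2. General translation then drops while the transcription factor ATF4 is translated more efficiently. With partners of the C/EBP family, ATF4 binds C/EBP-ATF elements and raises transcription of genes for amino acid uptake, serine and asparagine synthesis and mitochondrial one-carbon metabolism, as well as of feedback genes that end the response. Serine synthesis and folate enzymes supply glycine and one-carbon units for nucleotide synthesis, on which dividing progenitor cells depend.

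The C/EBP-ATF element is the sequence shared by several of these genes. It was searched as TGATGNAA on both strands in RefSeq promoter windows of GRCm38.p6, each running from 250 bases before the start of a gene to 50 bases after it. Of the 31 genes, 27 were in that table, and 8 of the 27 held a match (29.6%), against 1219 of 27025 genes in the whole table (4.51%). The 8 were Asns, Chac1, Nupr1, Pycr1, Slc1a4, Slc7a11, Trib3 and Vldlr. The genes were listed for their place in this pathway, so a higher share is part of how they were chosen. Stretches of 60 bases upstream of the start are printed for 4 of them, because they show the element on either strand, and in Slc7a11 as 2 elements facing each other. Capitals mark the element, and each stretch is written along the strand of its gene.
Asns (chr6:7693210-7693269, minus strand): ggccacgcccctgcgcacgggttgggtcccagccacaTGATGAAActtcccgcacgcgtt
Chac1 (chr2:119351022-119351081, plus strand): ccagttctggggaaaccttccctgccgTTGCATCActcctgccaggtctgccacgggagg
Nupr1 (chr7:126625551-126625610, minus strand): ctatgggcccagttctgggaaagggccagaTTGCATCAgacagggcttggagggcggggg
Slc7a11 (chr3:50443634-50443693, minus strand): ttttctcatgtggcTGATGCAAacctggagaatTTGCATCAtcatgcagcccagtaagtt
In Asns the match began 23 bases before the start and read in the direction of the gene, whereas in Chac1 and Nupr1 it lay on the opposite strand, beginning 193 and 110 bases before the start. Slc7a11 held 1 match on each strand, beginning 66 and 47 bases before the start. A match is a description of these letters and not a measured binding site.

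Gene counts ranged from 5723245 to 8615997 per library, and the 31 genes made up between 0.350% and 0.400% of them. Alkbh5 had 0, 1 and 1 counts in deficient fed replicates 1 to 3 and 1166, 1479 and 1061 in the WT ones, and 1 and 1263 in the unlabelled deficient and WT libraries. The count of 0 allows up to 3 counts, or 0.449 CPM. Markers of the labelled cells were present, with stem and progenitor markers (8 genes) summing to between 580 and 687 CPM (read counts scaled to a common library size) in deficient fed libraries and 627 to 712 CPM in WT fed libraries. Neutrophil granule markers (9 genes) were more abundant in every library, at 7657 to 11942 CPM in deficient fed, 6805 to 13102 CPM in WT fed and 5094 to 5903 CPM in unlabelled libraries. In bulk samples like these, fewer cells of a type and less RNA per cell cannot be told apart. Replicate 1 of both genotypes stood apart: reads in no gene made up 37.6% of all counts in the deficient and 38.3% in the WT library, against 48.9% to 52.1% elsewhere. Stromal markers (6 genes) summed to 22.7 CPM in deficient and 15.0 CPM in WT replicate 1, where Col3a1 was at 0, against 323 to 1967 CPM in the other fed libraries. WT fed replicate 3 also stood apart, with the highest stromal sum (1967 CPM) and with 14.2% of its gene counts in the ribosomal-repeat gene Gm26917, against 6.33% to 8.34% in all others. By the sex-linked RNAs Xist and Ddx3y, fed replicate 2 was female and fed replicates 1 and 3 male in either genotype, whereas each unlabelled library held RNA of both sexes.

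Per length, measured as CPM per kb of exon and averaged over the 8 libraries, Atf4 was the most abundant at 266. It was followed by Slc3a2, the heavy chain shared by several amino acid exchangers, at 98.6. Ddit3, which encodes the stress factor CHOP, stood at 80.1, Shmt2, the mitochondrial serine hydroxymethyltransferase, at 72.7 and Slc7a5, a transporter of large neutral amino acids, at 72.0. Slc3a2 stood above Ddit3, Shmt2 and Slc7a5 in every library. The ranges over libraries of Ddit3, Shmt2 and Slc7a5 overlapped, and the order among them is not resolved. The lowest Atf4 value (221) exceeded the highest Slc3a2 value (130). At the other end were the lipoprotein receptor Vldlr at 0.98, the transsulfuration enzyme Cth at 0.443 and the mitochondrial folate enzyme Aldh1l2 at 0.137. Cbs, the entry enzyme of transsulfuration, had 1 count in deficient fed replicate 1, 2 in the unlabelled deficient library, 1 in the unlabelled WT library and 0 in the other 5. A count of 0 allows up to 3 counts, or between 0.346 and 0.583 CPM in those 5 libraries (counting error only).

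**Figure D1:**
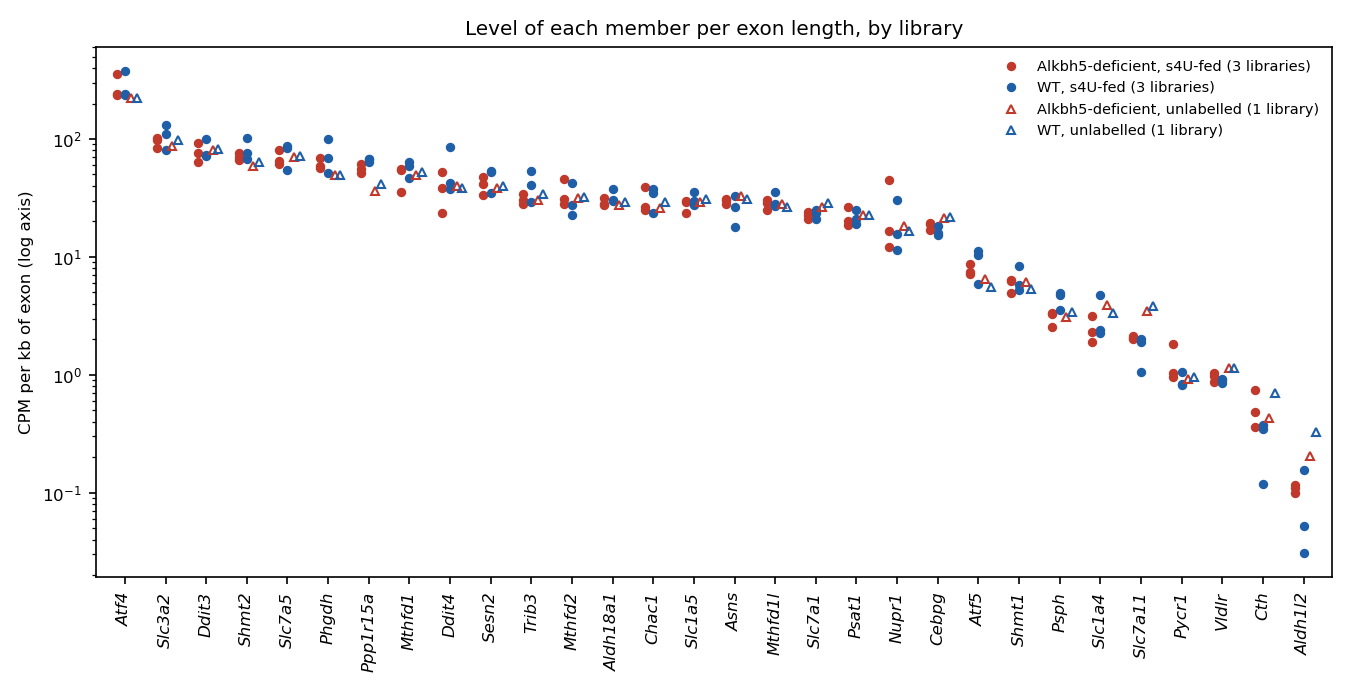
Level of 30 genes (all but Cbs) in CPM per kb of exon on a log axis, ordered by their mean over 8 libraries; each point is 1 library, red for Alkbh5-deficient, blue for WT, filled for s4U-fed, open for unlabelled. Levels run from 266 for Atf4 to 0.137 for Aldh1l2, and most genes spread less between libraries than they differ from the ends of the order.

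The first comparison asks whether these RNAs differed between Alkbh5-deficient and WT cells fed s4U. No gene of the list passed the edgeR quasi-likelihood test at an adjusted p of 0.05. Of the 31 genes, 28 passed the low-count filter, and Aldh1l2, Cth and Cbs did not. Called by edgeR were 0 of 28, against 1 of 13342 genes tested in all (0.0075%), which was Alkbh5 itself. Psph was the only one of the 28 with an unadjusted p under 0.05, against 1.13% of all genes, and DESeq2 called 0 of 28, against 0.015% of all genes. Log2 fold changes ran from -0.52 for Psph to 0.48 for Pycr1, with standard errors (SE) between 0.14 and 0.51. They were below 0 for 21 of the 28, against 49.8% of all genes, with a median of -0.13 against 0.00 for all genes. That leaning depended on single libraries. Without WT replicate 3 it was 15 of 28 with a median of -0.01, without deficient replicate 3 it was 16, without WT replicate 1 it was 17 and without deficient replicate 1 it was 23. Same-numbered libraries did not share it either: the median log2 ratio, deficient over WT, was -0.12 for number 1, 0.09 for number 2 and -0.28 for number 3. Only Ppp1r15a, Psph and Mthfd1 were lower in the deficient library of all 3 pairs, and Cebpg, Mthfd2, Slc7a11 and Pycr1 were higher in all 3. The shares of all genes that did so were not computed, so these counts are not read as a result.

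**Figure D2:**
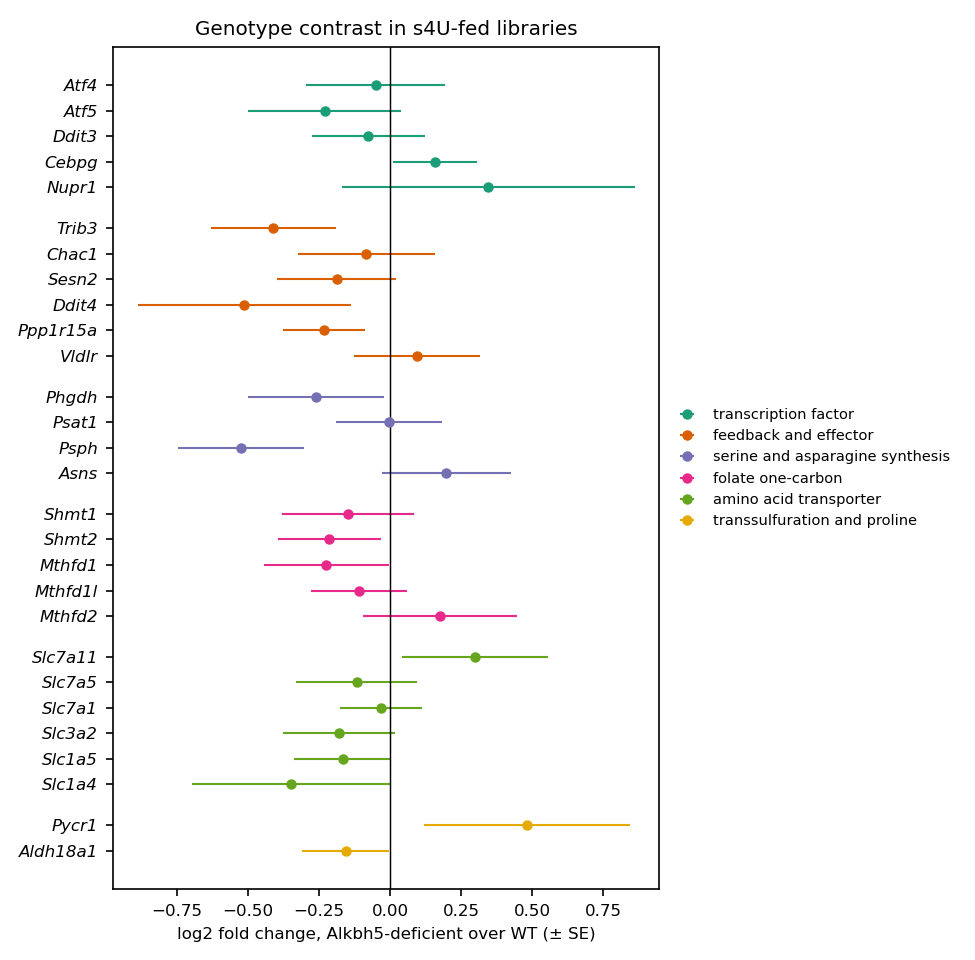
Log2 fold change, Alkbh5-deficient over WT fed libraries, of the 28 genes tested, with bars of 1 SE from edgeR (n = 3 libraries each), coloured by role. The points lie between -0.52 (Psph) and 0.48 (Pycr1), 21 are left of 0, and none passed the adjusted test.

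Among the transcription factors, Atf4 (GRCm38 chr15:80255184-80257541, plus strand) had 834, 567 and 553 CPM in deficient fed replicates 1 to 3, against 888, 566 and 562 CPM in WT fed replicates 1 to 3. Replicate 1 was the highest of its group in both genotypes, and the groups overlapped throughout. The log2 fold change was -0.05 ± 0.24 (SE; edgeR, adjusted p = 1.00). Without replicate 1 of both genotypes the other pairs were nearly level, and without WT replicate 1 alone the value was 0.20.

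Ddit3 followed the same order, with 160, 130 and 110 CPM in deficient fed libraries against 172, 125 and 124 CPM in WT fed libraries. Its log2 fold change was -0.08 ± 0.20. The 3 other factors were Atf5, Cebpg, a dimer partner of ATF4, and Nupr1, a small stress-induced chromatin protein. Atf5 averaged 15.5 ± 1.61 CPM in deficient and 18.3 ± 5.82 CPM in WT fed libraries (SD, n = 3 each). Cebpg averaged 104 ± 7.63 and 92.9 ± 8.99 CPM in deficient and WT fed libraries. Nupr1 varied most, with 113, 30.8 and 42.1 CPM in deficient fed libraries against 76.6, 39.5 and 28.8 CPM in WT fed libraries, so replicate 1 was again highest in both.

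Of the 6 feedback and effector genes, 5 had log2 fold changes below 0, and none passed the test. Ppp1r15a (GRCm38 chr7:45522916-45526268, minus strand) encodes GADD34, the subunit that directs a phosphatase to eIF2 and so ends the response. It had 151, 181 and 165 CPM in deficient fed libraries, against 186, 197 and 199 CPM in WT fed libraries. Every deficient library lay below every WT library. The log2 fold change was nevertheless small at -0.23 ± 0.15 (edgeR, adjusted p = 1.00). It stayed between -0.30 and -0.17 when each fed library was left out.

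Trib3, a pseudokinase that binds ATF4 and dampens its activity, had 72.9, 64.2 and 59.8 CPM in deficient fed libraries, against 86.2, 62.3 and 113 CPM in WT fed libraries. WT replicate 3 was highest and WT replicate 2 lay within the deficient range. Its log2 fold change was -0.41 ± 0.22 (edgeR, adjusted p = 1.00), and -0.17 without WT replicate 3. Ddit4, which encodes the mTORC1 inhibitor REDD1, had 41.4, 92.9 and 68.0 CPM in deficient fed libraries, against 65.8, 73.7 and 151 CPM in WT fed libraries. Both extremes of its range were single libraries, and the log2 fold change of -0.51 ± 0.38 became -0.05 without WT replicate 3. Chac1, an enzyme that degrades glutathione, had 64.0, 43.4 and 40.9 CPM in deficient fed libraries against 56.9, 38.3 and 61.8 CPM in WT fed libraries. These groups overlapped almost completely, with a log2 fold change of -0.08 ± 0.24. Sesn2, a leucine-sensing inhibitor of mTORC1, averaged 143 ± 24.6 CPM in deficient and 162 ± 36.2 CPM in WT fed libraries, and Vldlr 9.67 ± 0.83 and 9.03 ± 0.34 CPM.

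Serine is made from a glycolytic intermediate by Phgdh, Psat1 and Psph in turn, and asparagine by Asns. Psph (GRCm38 chr5:129765558-129787449, minus strand), the last enzyme of serine synthesis, had 14.5, 11.1 and 14.3 CPM in deficient fed libraries, against 21.5, 15.3 and 20.6 CPM in WT fed libraries. All 3 deficient libraries were below all 3 WT libraries, and the gap between the nearest was under 1 CPM. The log2 fold change was -0.52 ± 0.22 (edgeR, adjusted p = 1.00; DESeq2, adjusted p = 1.00). It ranged from -0.66 to -0.41 when each library was left out. Psph shares 452 exon bases with Cct6a on the other strand, and the strand setting of the counting is not given. The kit was stranded, and no entry for ambiguous reads names any of the 31 genes. Whether reads of Psph and Cct6a are mixed there was not tested.

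The 2 enzymes before it overlapped between genotypes. Phgdh, which commits carbon to serine, had 141, 171 and 146 CPM in deficient fed libraries, against 173, 127 and 249 CPM in WT fed libraries. WT replicates 2 and 3 were the lowest and the highest of the 6, and the log2 fold change of -0.26 ± 0.24 became 0.03 without WT replicate 3. Psat1 had 113, 79.1 and 86.1 CPM in deficient and 107, 80.9 and 89.4 CPM in WT fed libraries, nearly the same by number, with a log2 fold change of 0.00 ± 0.19. Asns had 76.2, 85.1 and 83.6 CPM in deficient fed libraries, against 72.6, 90.5 and 49.2 CPM in WT fed libraries. Only WT replicate 3 lay well apart, and without it the log2 fold change of 0.20 ± 0.23 became 0.00. Phgdh has 12 processed pseudogenes at least 95% identical over 200 or more bases. The 9 of them that the files list held 526 counts over 8 libraries, against 8859 for Phgdh, and 451 of the 526 were in Gm7901.

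Of the 5 folate genes tested, 4 had log2 fold changes below 0. Mthfd2, the mitochondrial dehydrogenase that is high in dividing cells, was the exception. It had 159, 98.4 and 108 CPM in deficient fed libraries, against 147, 96.8 and 78.5 CPM in WT fed libraries. Replicate 1 was the highest in both genotypes and the groups overlapped, with a log2 fold change of 0.18 ± 0.27 that was 0.00 without WT replicate 3 and -0.05 without deficient replicate 1. The cytosolic synthase Mthfd1 averaged 216 ± 50.0 CPM in deficient and 252 ± 40.6 CPM in WT fed libraries, and the mitochondrial Mthfd1l 124 ± 13.1 and 134 ± 21.1 CPM. Shmt2 averaged 220 ± 15.8 CPM in deficient and 256 ± 54.9 CPM in WT fed libraries, and its cytosolic counterpart Shmt1 22.7 ± 3.0 and 25.1 ± 6.59 CPM. Aldh1l2 had 5, 6 and 7 counts in deficient and 7, 2 and 2 counts in WT fed libraries, too few for the filter.

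Of the 6 amino acid transporters, Slc7a11 alone had a log2 fold change above 0. The gene lies at GRCm38 chr3:49892526-50443614 on the minus strand and encodes the cystine importer xCT. It had 27.8, 29.8 and 28.5 CPM in deficient fed libraries, against 26.5, 28.2 and 14.8 CPM in WT fed libraries. WT replicate 3 was well below the other 5, which differed little. The log2 fold change was 0.30 ± 0.26 (edgeR, adjusted p = 1.00), and 0.07 without WT replicate 3. Its partner Slc3a2 had 357, 349 and 294 CPM in deficient fed libraries, against 387, 284 and 460 CPM in WT fed libraries, with WT values on both sides of the deficient range. Its log2 fold change was -0.18 ± 0.20, and -0.01 without WT replicate 3 but -0.35 without WT replicate 2. Slc7a5 averaged 257 ± 38.5 CPM in deficient and 279 ± 68.1 CPM in WT fed libraries. The cationic amino acid transporter Slc7a1 had 276, 264 and 243 CPM in deficient fed libraries, against 269, 241 and 288 CPM in WT fed libraries, and the groups overlapped. Of the neutral amino acid transporters, Slc1a5 averaged 115 ± 14.7 CPM in deficient and 129 ± 17.6 CPM in WT fed libraries. Slc1a4 had 7.48, 12.3 and 9.01 CPM in deficient fed libraries, against 9.49, 8.88 and 18.7 CPM in WT fed libraries, with WT replicate 3 well above the other 5.

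In proline synthesis, Pycr1 had 7.18, 4.11 and 3.75 CPM in deficient fed libraries, against 4.16, 3.23 and 3.30 CPM in WT fed libraries. The 2 groups overlapped only through WT replicate 1, and deficient replicate 1 set the size of the log2 fold change, 0.48 ± 0.36 with all 6 libraries and 0.14 without it. Aldh18a1, which acts before Pycr1, averaged 119 ± 8.68 CPM in deficient and 132 ± 17.5 CPM in WT fed libraries. Cth had 9, 15 and 8 counts in deficient and 2, 9 and 5 counts in WT fed libraries.

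Groups without overlap were thus found for 2 of the 28 genes, both lower in deficient libraries (Psph and Ppp1r15a), against 3.06% of all genes lower and 2.62% higher without overlap. None of the 28 was higher without overlap. A count of 2 is too small to set against those shares.

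**Figure D3:**
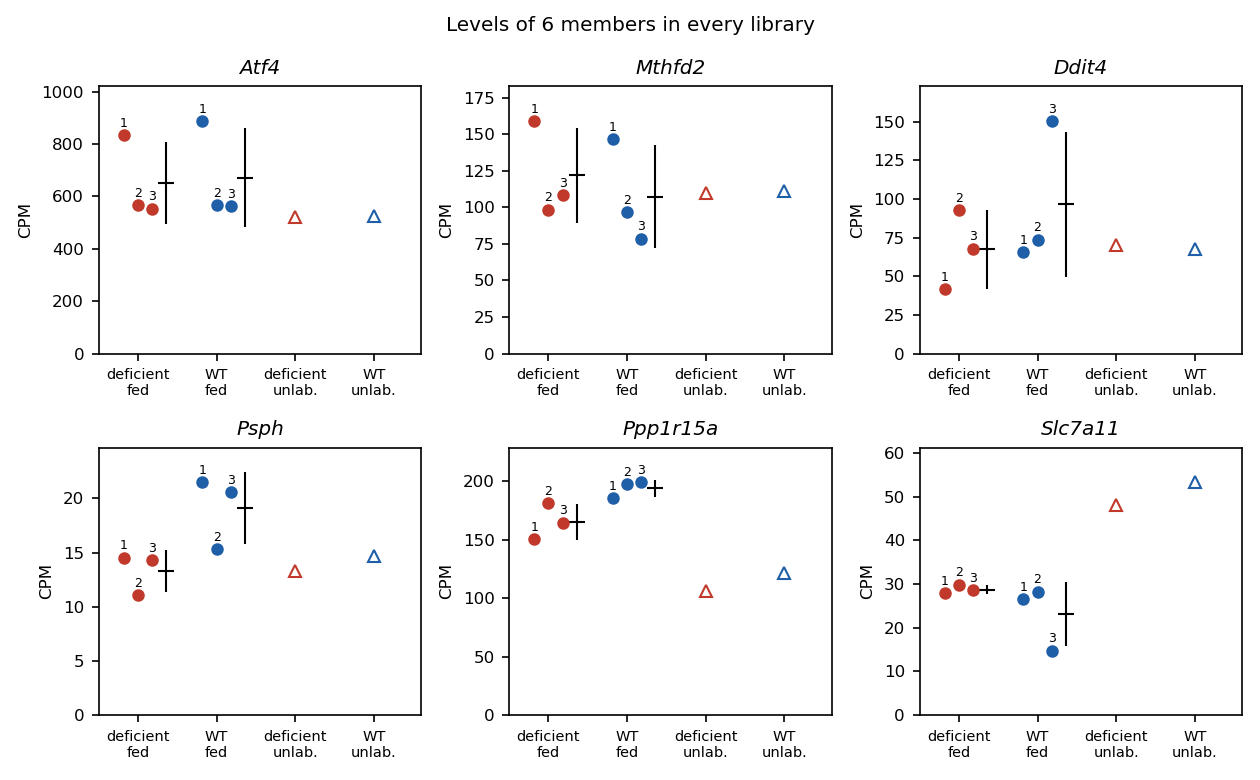
CPM of 6 genes in every library: filled circles are s4U-fed libraries with their replicate number, black bars beside them the mean ± SD (n = 3), and open triangles the single unlabelled libraries. Atf4 and Mthfd2 are highest in replicate 1 of both genotypes, Ddit4 is highest in WT replicate 3, Psph and Ppp1r15a do not overlap between fed genotypes, and Slc7a11 is higher in both unlabelled libraries than in all fed ones.

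The unlabelled libraries give the same comparison once more in cells without s4U, with 1 library each and so no test of the genotypes. Over the 28 genes the ratio of deficient to WT CPM lay between 0.871 (Ppp1r15a) and 1.18 (Slc1a4), with 19 ratios under 1 and 9 over 1 and a median log2 ratio of -0.02. Among all genes with counts there, 46.8% had a ratio under 1, and the median log2 ratio was 0.01. Ppp1r15a had 106 CPM in the deficient and 122 CPM in the WT unlabelled library, a ratio of 0.871 with an exact binomial 95% interval of 0.796 to 0.954. That interval covers counting error only. Trib3 (0.875), Slc3a2 (0.890), Shmt2 (0.927) and Slc7a1 (0.929) were the other 4 of the 28 whose interval excluded 1, all of them lower in the deficient library. Of all genes, 7.36% were lower and 9.55% higher in this sense, a share that rises with the counts of the genes compared. Psph had 13.3 CPM in the deficient and 14.6 CPM in the WT unlabelled library, a ratio of 0.908 (interval 0.697 to 1.18). Atf4 had 521 and 524 CPM in the deficient and WT unlabelled libraries, a ratio of 0.994.

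Some of these genes differed more between replicate 1 and the other fed libraries than between genotypes. In both genotypes, 6 of the 28 genes were higher in replicate 1 than in every other fed library: Atf4 (1.53 times the mean of the other 4), Ddit3 (1.36), Nupr1 (2.69), Psat1 (1.31), Mthfd2 (1.60) and Pycr1 (1.58). Another 3 were lower in replicate 1 of both, namely Ddit4 (0.557), Mthfd1 (0.704) and Slc1a5 (0.819). Among all genes tested, 22.3% were higher and 19.2% lower in the same way, so the share of higher genes was close to that background and is not a property of the list. The same libraries had the low share of reads in no gene, the low stromal sums and neutrophil sums of 11942 CPM (deficient) and 13102 CPM (WT), against 6805 to 8097 CPM in the other fed libraries. The part of these differences in the result was not tested. WT replicate 3 was the highest of the 6 fed libraries for 13 of the 28 genes, against 28.5% of all genes, and the lowest for 5, against 27.8%. The 13 include Ddit4, Trib3, Phgdh, Slc3a2 and Shmt2, and the lowest values include Slc7a11, Asns and Mthfd2.

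**Figure D4:**
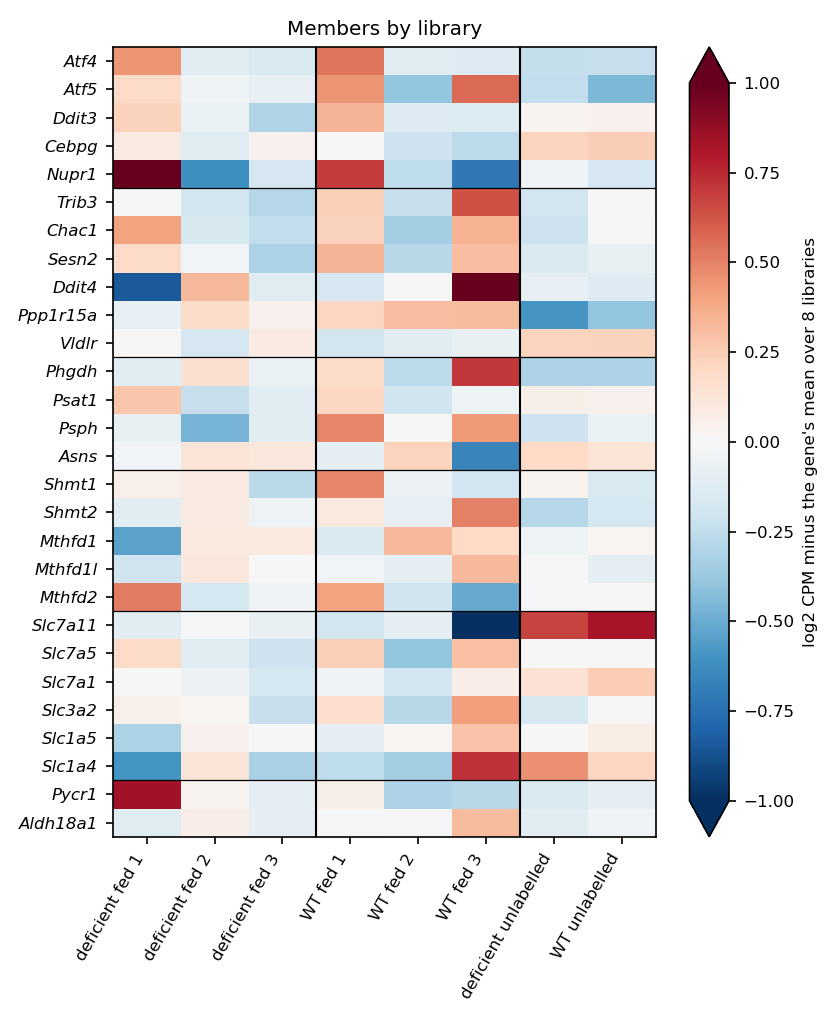
Heat map of the 28 genes by library, in log2 CPM minus the mean of the gene over 8 libraries, with colours ending at -1 and 1 and black lines between roles and between groups. Atf4, Nupr1 and Mthfd2 are red in replicate 1 of both genotypes, WT fed replicate 3 is red for most of the 13 genes that peak there among fed libraries, and Slc7a11 is red in both unlabelled libraries.

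The second comparison sets the 6 s4U-fed libraries against the 2 unlabelled libraries, with genotype as a covariate, and 30 of the 31 genes were tested. These sets differed in more than s4U. Without s4U, Xist and Ddx3y were both present (9147 and 299 counts in WT, 8770 and 511 in deficient cells). Every fed library was high in only 1 of them. Neutrophil sums were 5094 to 5903 CPM without s4U and 6805 to 13102 CPM with it. The comparison does not separate these differences from s4U, and their part in the values was not tested. edgeR called 0 of 30 at an adjusted p of 0.05, against 4 of 14988 genes in all (0.0267%). At an unadjusted p under 0.05 it found 4 of 30, namely Ppp1r15a, Slc7a11, Aldh1l2 and Cebpg, against 19.6% of all genes. With 1 unlabelled library per genotype, the low-count filter here admitted a gene on its count in a single library. Aldh1l2, left out between fed genotypes, passed through its unlabelled counts (14 and 19, against 2 to 7 in fed libraries). Its place below the unlabelled libraries and its low p were thus set in part by the filter. DESeq2 called 2 of 30, Ppp1r15a and Slc7a11, against 4.35% of all genes, and gave no adjusted p for 5 of the 30. Fed libraries were above both unlabelled ones without overlap for 4 genes (Atf4, Ppp1r15a, Phgdh and Shmt2; 14.7% of all genes) and below both for 5 (Cebpg, Aldh1l2, Slc7a11, Slc7a1 and Vldlr; 16.2% of all genes). Log2 fold changes were below 0 for 11 of 30 genes, against 47.9% of all genes, with a median of 0.09 against 0.03 for all genes. Here too the leaning depended on libraries: it was 15 of 30 with a median of 0.00 without replicate 1 of both genotypes, and 16 of 30 with a median of 0.00 without the unlabelled WT library.

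Ppp1r15a had the smallest p of the 30 genes. Its fed values of 151, 181 and 165 CPM in deficient and 186, 197 and 199 CPM in WT libraries compare with 106 CPM in the unlabelled deficient and 122 CPM in the unlabelled WT library. The lowest fed library was thus above both unlabelled ones. The log2 fold change was 0.66 ± 0.13, a fold of 1.58 (edgeR, adjusted p = 0.165; DESeq2, adjusted p = 0.00122). It was 0.65 in deficient libraries alone and 0.67 in WT libraries alone, 0.71 without replicate 1 of both genotypes, and between 0.62 and 0.69 when each library was left out.

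Slc7a11 had the next smallest p. Fed libraries had 27.8, 29.8 and 28.5 CPM in deficient and 26.5, 28.2 and 14.8 CPM in WT cells, against 48.2 CPM in the unlabelled deficient and 53.3 CPM in the unlabelled WT library. All 6 fed values lay below both unlabelled ones. The log2 fold change was -0.98 ± 0.22, a fold of 0.509 (edgeR, adjusted p = 0.165; DESeq2, adjusted p = 0.016). It was -0.73 in deficient and -1.19 in WT libraries alone, and -0.84 without WT replicate 3.

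Transcript length moved with this comparison. Across all genes with a length (98.95% of those tested), the s4U log2 fold change fell with exon length, with a Spearman rho of -0.32 that describes genes of the same 8 libraries. Slc7a11 is the longest of the 31, with 13922 exon bases, and a smooth trend through all genes stands at -0.28 at that length, which leaves -0.70. Ppp1r15a has 2937 exon bases, where the trend stands at 0.09, which leaves 0.57. For Slc7a1 (11530 bases), with a log2 fold change of -0.26 ± 0.13, the trend stands at -0.23, which leaves -0.03. What length contributes to each value was not tested. Slc7a11 also holds a stretch of 373 bases that is at least 95% identical to the alpha-tubulin genes Tuba1a, Tuba1b and Tuba1c and to 5 processed pseudogenes, so reads from that stretch could be counted for either. The 5 pseudogenes held 1446 counts over the 8 libraries and Tuba1b 14088, against 1965 for Slc7a11. Tuba1a had a log2 fold change of -0.35, Tuba1b of 0.39 and Tuba1c of 0.36 in the same comparison, none of them passing the test (edgeR, adjusted p = 0.299, 0.18 and 0.294). Of the 5 pseudogenes, Gm14150 stood at 1.11, Gm3226 at 1.07, Gm17383 at 0.94, Gm5620 at 0.46 and Gm3756 at 0.22, all on the other side of 0 from Slc7a11, and none passed the test (edgeR, adjusted p between 0.165 and 0.87).

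Aldh1l2 had 5, 6 and 7 counts in deficient and 7, 2 and 2 counts in WT fed libraries, against 14 in the unlabelled deficient and 19 in the unlabelled WT library. These counts are small, and the gene passed the low-count filter only through the unlabelled libraries. Aldh1l2 shares 1056 exon bases with D10Wsu102e on the other strand, which held 7570 counts over 8 libraries. No entry for ambiguous reads names Aldh1l2, and whether reads of the 2 genes are mixed was not tested. The log2 fold change of Aldh1l2 was -1.49 ± 0.57 (edgeR, adjusted p = 0.207). It was -0.89 without the unlabelled WT library and -2.06 without the unlabelled deficient library. Cebpg had 110, 95.3 and 107 CPM in deficient and 103, 89.5 and 86.1 CPM in WT fed libraries, against 120 and 122 CPM in the unlabelled deficient and WT libraries. Every fed value was below both unlabelled ones, by a small margin, with a log2 fold change of -0.31 ± 0.13 (edgeR, adjusted p = 0.246).

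Atf4 itself averaged 651 ± 158 CPM in deficient fed and 672 ± 187 CPM in WT fed libraries (SD over 3 libraries each). The unlabelled deficient library had 521 CPM and the unlabelled WT library 524 CPM. All 6 fed values were higher, the nearest by less than 30 CPM, and the log2 fold change of 0.34 ± 0.23 (edgeR, adjusted p = 0.434) was 0.11 without replicate 1 of both genotypes. Phgdh and Shmt2 were also above both unlabelled libraries in all fed libraries, with log2 fold changes of 0.44 ± 0.23 and 0.32 ± 0.17. The Phgdh value was 0.30 without WT replicate 3, and its pseudogene Gm7901 stood at 1.54 ± 0.31 (edgeR, adjusted p = 0.165). For Phgdh the nearest values were 127 CPM in WT fed replicate 2 and 123 CPM in each unlabelled library. Slc7a1 had fed values of 241 to 288 CPM, against 305 CPM in the unlabelled deficient and 328 CPM in the unlabelled WT library, so all fed values were below both.

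The other core ATF4 targets had fed values on both sides of the unlabelled ones, and their log2 fold changes were small beside their SE or close to it. Ddit3 had 110 to 172 CPM in fed libraries, against 138 CPM in the unlabelled deficient and 140 CPM in the unlabelled WT library (-0.03 ± 0.18). Trib3 had 59.8 to 113 CPM in fed libraries, against 64.1 CPM in the unlabelled deficient and 73.2 CPM in the unlabelled WT library (0.14 ± 0.21, and 0.03 without WT replicate 3). Chac1 had 38.3 to 64.0 CPM in fed libraries, against 42.2 and 48.0 CPM in the unlabelled deficient and WT libraries (0.17 ± 0.23, and 0.03 without replicate 1 of both genotypes). The synthesis and folate enzymes were similar in this respect. Asns had 49.2 to 90.5 CPM in fed libraries, against 89.3 and 85.5 CPM in the unlabelled deficient and WT libraries (-0.20 ± 0.20, and -0.10 without WT replicate 3). Psat1 had 79.1 to 113 CPM in fed libraries, against 96.9 and 95.5 CPM in the unlabelled deficient and WT libraries (-0.06 ± 0.17). Mthfd2 had 78.5 to 159 CPM in fed libraries, against 110 and 111 CPM in the unlabelled deficient and WT libraries (0.05 ± 0.25). Only 1 transporter belongs to this set. Slc3a2 had 284 to 460 CPM in fed libraries, against 309 and 347 CPM in the unlabelled deficient and WT libraries (0.12 ± 0.19, and 0.04 without WT replicate 3). The genes with the element in their promoter window went both ways. Slc7a11, the lowest of the transporters, Asns, Slc1a4 (-0.41 ± 0.32) and Vldlr (-0.30 ± 0.19) were below 0. Trib3, Chac1, Pycr1 (0.20 ± 0.35) and Nupr1 (0.31 ± 0.49) were above 0.

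**Figure D5:**
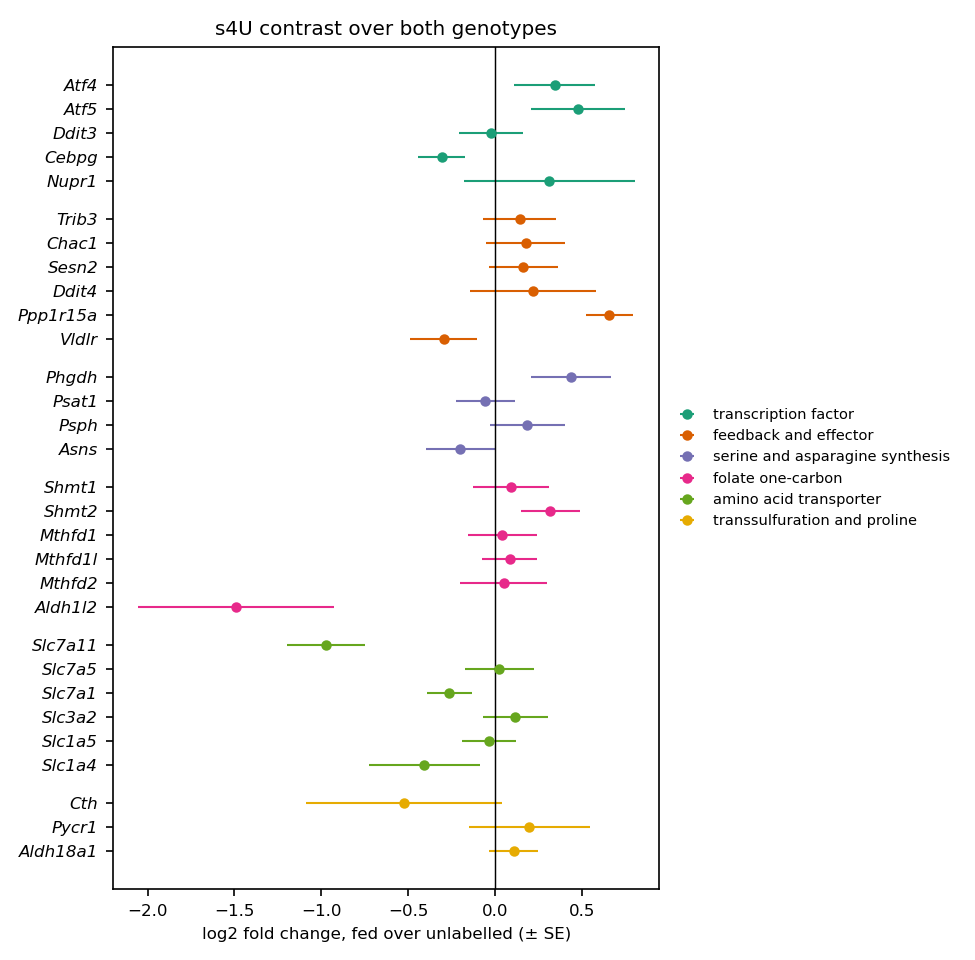
Log2 fold change, s4U-fed over unlabelled, of the 30 genes tested, with bars of 1 SE from edgeR over 6 fed and 2 unlabelled libraries, coloured by role. Ppp1r15a (0.66) and Slc7a11 (-0.98) have bars far from 0, Aldh1l2 (-1.49) has a wide bar, and 19 of the 30 points are right of 0.

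The third comparison asks whether the genotype difference differed between fed and unlabelled cells. edgeR called 0 of 30 genes, against 0% of all genes, and 0 of 30 had an unadjusted p under 0.05, against 0.16% of all genes. DESeq2 also called none (0% of all genes). The interaction was below 0 for 19 of 30 genes, against 51% of all genes, with a median of -0.05. It was below 0 for 13 of 30 (median 0.04) without WT replicate 3, for 14 (median 0.02) without deficient replicate 3 and for 15 (median 0.00) without WT replicate 1. SEs ran from 0.30 to 1.22 on the log2 scale, so with 1 unlabelled library per genotype only differences well above those sizes could have been detected. The smallest p belonged to Cth, at 1.56 ± 1.13 (edgeR, adjusted p = 1.00), on counts of 9, 15 and 8 in deficient fed, 2, 9 and 5 in WT fed, 11 in unlabelled deficient and 15 in unlabelled WT libraries. Next came Aldh1l2 at 1.18 ± 1.22, which was 2.11 without WT replicate 1 and 0.73 without WT replicate 2. Cth and Aldh1l2 failed the low-count filter over the fed libraries and passed it here only through libraries where they are high. For Cth these were deficient fed replicate 2 and the unlabelled WT library, with 15 counts each, and for Aldh1l2 the unlabelled libraries. Their place at the head of this ranking thus rests in part on the filter. Slc7a11 stood at 0.45 ± 0.49, and at 0.23 without WT replicate 3. Slc1a4, with 15.5 CPM in the unlabelled deficient and 13.1 CPM in the unlabelled WT library, stood at -0.59 ± 0.68, and at -0.15 without WT replicate 3. Psph stood at -0.38 ± 0.46, and at -0.25 without deficient replicate 2. For Ppp1r15a the interaction was -0.03 ± 0.30, from a fed genotype log2 fold change of -0.23 and an unlabelled log2 ratio of -0.20.

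Other genes of the pathway were taken from 3 lists, and edgeR called none of their tested genes in any comparison. The first held 19 genes, all tested: the eIF2 kinases, the 3 subunits, the exchange factor eIF2B and modulators, and also Eif4ebp1, which is not an eIF2 regulator. Between genotypes 7 were below 0 and 12 above, with a median of 0.04, and none had p under 0.05. The 2 with the smallest p were the mitochondrial protease gene Oma1 (0.27 ± 0.22) and Gcn1, the ribosome-bound activator of the amino acid sensor GCN2 (-0.25 ± 0.22). In fed over unlabelled cells, the adaptor gene Nck1 stood at -0.56 ± 0.19 and Eif2ak2, which encodes the double-stranded RNA sensor PKR, at -0.54 ± 0.20 (edgeR, adjusted p = 0.18 and 0.197).

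Cytosolic tRNA synthetases, many of which are ATF4 targets, formed the second list, with 20 of 20 tested. Between genotypes 19 of the 20 had log2 fold changes below 0, against 49.8% of all genes, with a median of -0.08. Vars, the valine enzyme, stood at -0.31 ± 0.19 and Farsa, of the phenylalanine enzyme, at -0.28 ± 0.18, and none had p under 0.05. The count was 13 of 20 without WT replicate 3, 14 without deficient replicate 1 and 17 to 19 without each of the other fed libraries. In fed over unlabelled cells 12 of 20 were above 0, with Kars, the lysine enzyme, at 0.39 ± 0.14 and Rars, the arginine enzyme, at -0.41 ± 0.15 (edgeR, adjusted p = 0.189 and 0.2).

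The third list held 18 further genes of folate and glycine metabolism, of which 16 were tested. Between genotypes 10 were below 0 and 6 above, with a median of -0.05. Gart, a folate-dependent enzyme of purine synthesis, averaged 135 ± 10.2 CPM in deficient and 175 ± 27.9 CPM in WT fed libraries, a log2 fold change of -0.38 ± 0.17 (edgeR, adjusted p = 1.00). Mtrr, which keeps methionine synthase active, stood at -0.40 ± 0.24. In fed over unlabelled cells, Slc25a32, the mitochondrial folate carrier, averaged 13.1 ± 1.65 CPM in deficient and 11.5 ± 1.37 CPM in WT fed libraries, against 21.3 and 18.9 CPM in the unlabelled deficient and WT libraries. Its log2 fold change was -0.71 ± 0.18 (edgeR, adjusted p = 0.165; DESeq2, adjusted p = 0.0388). Atic, which acts after Gart in purine synthesis, stood at 0.37 ± 0.15 (edgeR, adjusted p = 0.223).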

How the data were processed

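Total RNA of 8 libraries went through TimeLapse chemistry, which makes incorporated s4U read as C, and a stranded total RNA kit, per the labels' protocols. The authors deposited whole-number read counts per gene for each library, without normalization. The submitters' processing notes name DESeq2, STAR, HTSeq, Picard, HISAT2 and cutadapt and the mm10 and GRCm38 builds, with no version or role; the sources used here do not give how strand was handled in counting. Beside 27710 genes a file holds 928 rows without a gene name, such as reads in no gene (37.6% to 52.1% of all counts). Those rows were left out of library sizes and tests.

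Tests used edgeR 4.0.16 under R 4.3.3 (TMM, robust quasi-likelihood fits after the default filter on low counts), with Benjamini-Hochberg adjustment at 0.05 over all genes tested. CPM were TMM-scaled over 8 libraries, and the SE was the size of the log2 fold change divided by the root of F. Exon lengths and coordinates came from GENCODE M21 (GRCm38), promoters from RefSeq, and near-identical transcripts from BLAST+ 2.17.0. Alternatives included DESeq2 1.42.0, RLE size factors, other low-count filters, the replicate block and each library left out. Fits without replicate 1 of both genotypes and the length trend (lowess, span 0.3) were chosen after seeing the data, as was the share of all genes set beside the unlabelled pair. The tests were also run on simulated counts of independent libraries, without the replicate differences seen here, and the outcome is not reported.

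The 31 genes, the lists and the tests were chosen with earlier results of these data known. Described in most detail are 10 core genes and the 5 with the smallest p in each comparison; from each other list, the 2 with the smallest p. The labels number the replicates. Same-numbered libraries of the 2 genotypes deviated from their group means together across all genes, with r = 0.68, 0.29 and 0.192. Number 2 of either genotype and number 3 of the other correlated at 0.349 and 0.353. Deviations from a group mean cancel within the group, so a strong number 1 moves numbers 2 and 3 together. These values therefore cannot tell whether numbers 2 and 3 were matched. By Xist and Ddx3y, number 2 was female and number 3 male in both genotypes. Pairs in the text are same-numbered libraries. The reported test between genotypes was unpaired, and the replicate block was run as an alternative.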

Additional observations from a re-analysis of the deposited data

How the results depend on the processing

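edgeR called none of the 31 genes in any comparison under any alternative run, and DESeq2 called 2 in the s4U comparison. With the replicate number as a block, between genotypes 0 of the 28 genes were called, the median log2 fold change was -0.12 and 1 gene of all was called by edgeR (7 by DESeq2). The edgeR SE was lower with the block for the core genes, such as 0.12 against 0.24 for Atf4 and 0.18 against 0.20 for Slc3a2. The block was run between genotypes only, since the unlabelled libraries carry no replicate number, and changed no other call there. Of all genes, 2 were called between genotypes with no low-count filter and 2 by DESeq2. For s4U the count over all genes, 4 in the fit reported, was 37 with no low-count filter, 652 with DESeq2, 0 in deficient libraries alone, 0 in WT libraries alone, 1 without replicate 1 of both genotypes and 0 to 2 when each library was left out. The interaction without an unlabelled library could not be fitted. The cause of these shifts was not tested.

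Some directions turned. Between genotypes, leaving out each library gave -0.26 to 0.20 for Atf4, -0.22 to 0.096 for Ddit3, -0.31 to 0.058 for Chac1, -0.16 to 0.12 for Psat1, -0.46 to 0.027 for Phgdh and -0.052 to 0.47 for Mthfd2. Psat1 was at 0.0027 with RLE size factors, 0.0047 with no low-count filter, 0.0028 with DESeq2 and 0.0062 in the additive fit over 8 libraries. For s4U, leaving out each library gave -0.11 to 0.032 for Ddit3 and -0.086 to 0.15 for Mthfd2. In WT libraries alone Ddit3 was at 0.0013 and Mthfd2 at -0.055, without replicate 1 of both genotypes Mthfd2 was at -0.21, and after the length trend Chac1 was at -0.018. With 3 fed libraries per genotype and 1 unlabelled library each, a median SE of 0.22 between genotypes and 0.45 for the interaction limits what could be detected.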
